A study of Homo sapiens with 15 samples.

Results

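The genes described here are 10 that mark colon epithelium and its cell-to-cell adhesion: the transcription factors CDX1 and CDX2, the differentiation markers KRT20, VIL1, and LGALS4, the adhesion proteins CDH17, CDH1, and EPCAM, the simple-epithelium keratin KRT18, and, as the mesenchymal counterpart, vimentin (VIM). They were chosen by gene name, and all probes other than controls whose RefSeq accession belongs to 1 of them were taken, which gave 12 probes of the 34127 on the array (10 of 19483 named genes). HCT116, an established line of human colon carcinoma, was grown as xenografts in athymic nude mice, and tumor RNA was hybridized. The cells had been transfected with an empty vector, pCDNA3-HA-RASSF1A (wild type), wild type MOAP-1, or MOAP-1 with lysine changed to arginine at the position in its name (K264R or K278R). Each of these 5 groups had 3 tumors with 1 single-color Agilent array each. No other genotype or treatment distinguishes the groups. The study's methods describe transient transfection for these cells, so a tumor is not a single clone, and they describe expression of introduced RASSF1A as lasting for days in culture. How long it lasted in the tumors is not given in the sources used here. The tumors also hold mouse cells, whose RNA is read by the human probes only where it cross-hybridizes. Age of the animals is not given in the sources used here.

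CDX1 and CDX2 are homeodomain factors that set intestinal identity during development and keep up the expression of brush-border and differentiation genes in the adult colon. E-cadherin (CDH1) joins neighboring epithelial cells at adherens junctions, EPCAM is an adhesion protein of the basolateral membrane, and keratin 18 pairs with keratin 8 in the filaments of simple epithelia. When epithelial cells turn mesenchymal, E-cadherin is typically lost and vimentin gained, which is why these genes are read side by side in carcinoma cells.

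Levels are log2 signals relative to the 75th percentile of the same array, so a negative value lies below that percentile, and no level is compared between probes. Only probes that the scanner software marked as well above background in every tumor of some construct were tested, which held for 11 member probes of 9 genes. CDH17 (A_23_P111947), an intestinal cadherin, was the exception. It was well above background in 0 of 15 tumors, at log2 -9.04 to -8.21, while the dimmest probes that were well above background lay at -7.49 to -6.06 depending on the array, and no fold is given for it. The other 9 genes were well above background in all 15 tumors. This bar is low, since 85.1% to 93.1% of the spots of an array passed it, and the lymphocyte gene CD3E passed it in all 15 tumors as well. KRT8 and KRT19, the remaining epithelial keratins used to check the label, were also well above background throughout. The marker genes of the label were thus above background apart from CDH17. Of a wider list of intestinal differentiation genes, 34 were on the array and 28 were kept. The other 6 were well above background in 0 tumors (LGR5), 1 (FABP1, OLFM4), 2 (SI, FABP2), or 4 (ANPEP). MOAP1 itself (A_23_P205389) was higher than in vector by 0.86, 0.55, and 0.74 on the log2 scale in MOAP-1, K264R, and K278R tumors (limma adjusted p = 0.000842, 0.00939, and 0.00504). The RASSF1 probe (A_23_P41066) changed by -0.12 in the tumors labelled RASSF1A (adjusted p = 0.671). The files do not say whether either probe reads the introduced transcript. The 3 vector tumors and RASSF1A tumor 3 shared a slide, the 3 K264R tumors had a slide of their own, MOAP-1 tumors 1 and 3 shared another, MOAP-1 tumor 2 was with the 3 K278R tumors, and RASSF1A tumors 1 and 2 were on a further slide that was scanned on a later day. Slide and construct therefore cannot be told apart for MOAP-1, K264R, or K278R against vector. The same holds for RASSF1A against each of these 3 constructs, and for K264R against MOAP-1 or K278R. In bulk tumor RNA, fewer cells of a type and less RNA per cell cannot be told apart either.

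The 250 bases before the transcription start were at hand in the RefSeq promoter table (GRCh38.p14) for 4 of the 10 genes. Those of CDX2 and of the differentiation genes KRT20 and LGALS4 are shown because CDX factors bind AT-rich sites, and the capitals mark every TTTAT, the core letters of such sites, on either strand (ATAAA when read on the strand shown, which overlaps the letters of a TATA box). The strand is minus for all 3 and each runs 5′ to 3′ from chr13:27969316-27969565, chr17:40885243-40885492, and chr19:38812946-38813195.
CDX2: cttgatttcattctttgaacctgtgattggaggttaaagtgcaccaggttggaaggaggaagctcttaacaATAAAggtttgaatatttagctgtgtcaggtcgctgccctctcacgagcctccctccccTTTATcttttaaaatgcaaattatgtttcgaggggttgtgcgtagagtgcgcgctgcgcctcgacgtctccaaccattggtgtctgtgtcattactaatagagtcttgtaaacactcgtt
KRT20: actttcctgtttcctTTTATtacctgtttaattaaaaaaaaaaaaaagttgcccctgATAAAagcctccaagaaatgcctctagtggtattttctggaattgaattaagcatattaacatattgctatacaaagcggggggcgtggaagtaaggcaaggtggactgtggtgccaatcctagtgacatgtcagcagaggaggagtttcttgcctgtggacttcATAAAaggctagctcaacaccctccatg
LGALS4: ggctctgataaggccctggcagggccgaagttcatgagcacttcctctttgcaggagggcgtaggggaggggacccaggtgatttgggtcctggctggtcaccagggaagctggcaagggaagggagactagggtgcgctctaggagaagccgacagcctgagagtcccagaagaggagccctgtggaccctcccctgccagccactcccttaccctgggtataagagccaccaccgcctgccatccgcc
The KRT20 stretch held the letters 3 times, the last beginning 28 bases before the start, and the CDX2 stretch held them 2 times. The LGALS4 and VIM stretches held them 0 times. Of all 35116 promoters in the table, 32.7% held them at least once. A match of this kind is a description of the letters and not a binding site.

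No member passed the test against vector in any construct. A call required a Benjamini-Hochberg adjusted p under 0.05 in limma over the 30585 kept probes and a change of at least 1.5-fold. By this rule 0 of 11 member probes were called in MOAP-1 tumors, where 16.6% of all kept probes were called. The count was also 0 of 11 in K264R tumors (19.5% of all), in K278R tumors (10.9% of all), and in RASSF1A tumors (0% of all). At an unadjusted limma p under 0.05 the member probes numbered 3, 1, 2, and 3 of 11 for MOAP-1, K264R, K278R, and RASSF1A, against 42.4%, 45%, 36.2%, and 12.1% of all kept probes. At an adjusted p under 0.05 without the fold, 3 of 11 passed in MOAP-1 tumors (30.5% of all kept probes), 1 in K264R tumors (34.9%), 2 in K278R tumors (20.6%), and 0 in RASSF1A tumors (0%), and the 6 that passed were lower than in vector. The 3 tumors of a construct did not overlap those of vector at 4 of 11 member probes for MOAP-1, K264R, and K278R alike, against 48.6%, 52.8%, and 37.3% of all kept probes, and at 3 of 11 for RASSF1A, against 14.8%. The median log2 change of the 11 probes was 0.02, -0.04, 0.04, and -0.00 for MOAP-1, K264R, K278R, and RASSF1A, beside 0.02, -0.05, 0.06, and 0.02 for all kept probes. The missing calls do not show equal levels. The 95% interval of the change lay wholly within 1.5-fold for 5 of 11 probes in MOAP-1 tumors and for 6 of 11 in each of the other 3 constructs.

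**Figure D1:**
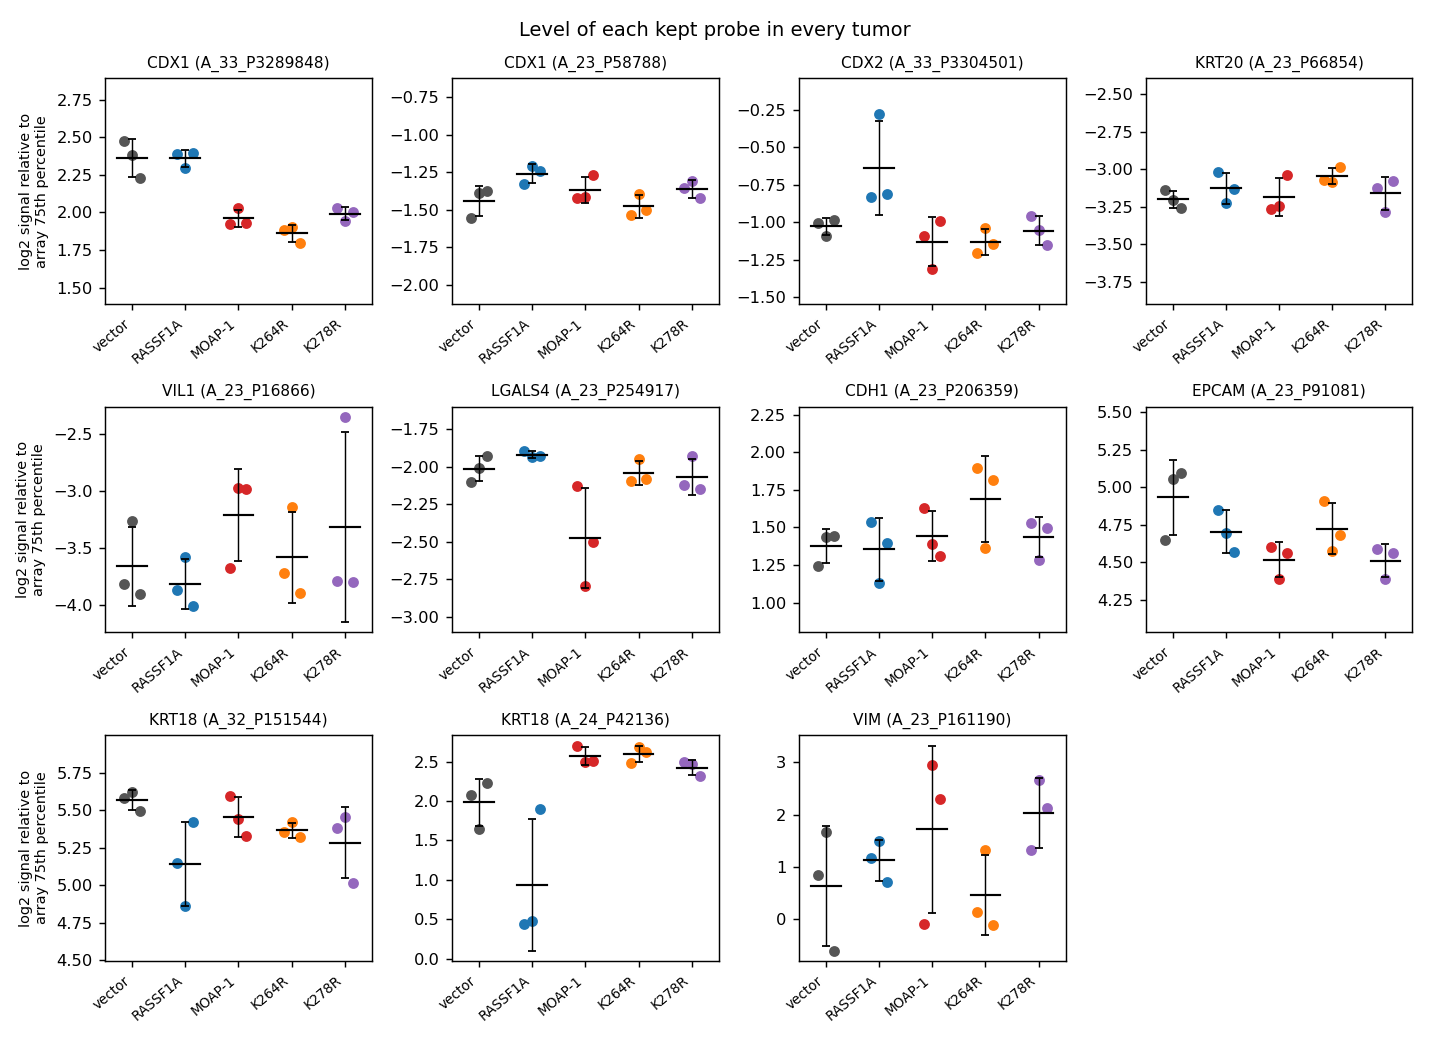
Log2 signal relative to the array's 75th percentile for the 11 kept member probes, 1 panel a probe. Each point is a tumor (3 for each of 5 constructs), the horizontal bar is the mean, and the error bar is 1 SD. CDX1 (A_33_P3289848) is lower in all 9 MOAP-1, K264R, and K278R tumors than in vector and RASSF1A tumors, while VIM spreads widely within constructs.

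**Figure D2:**
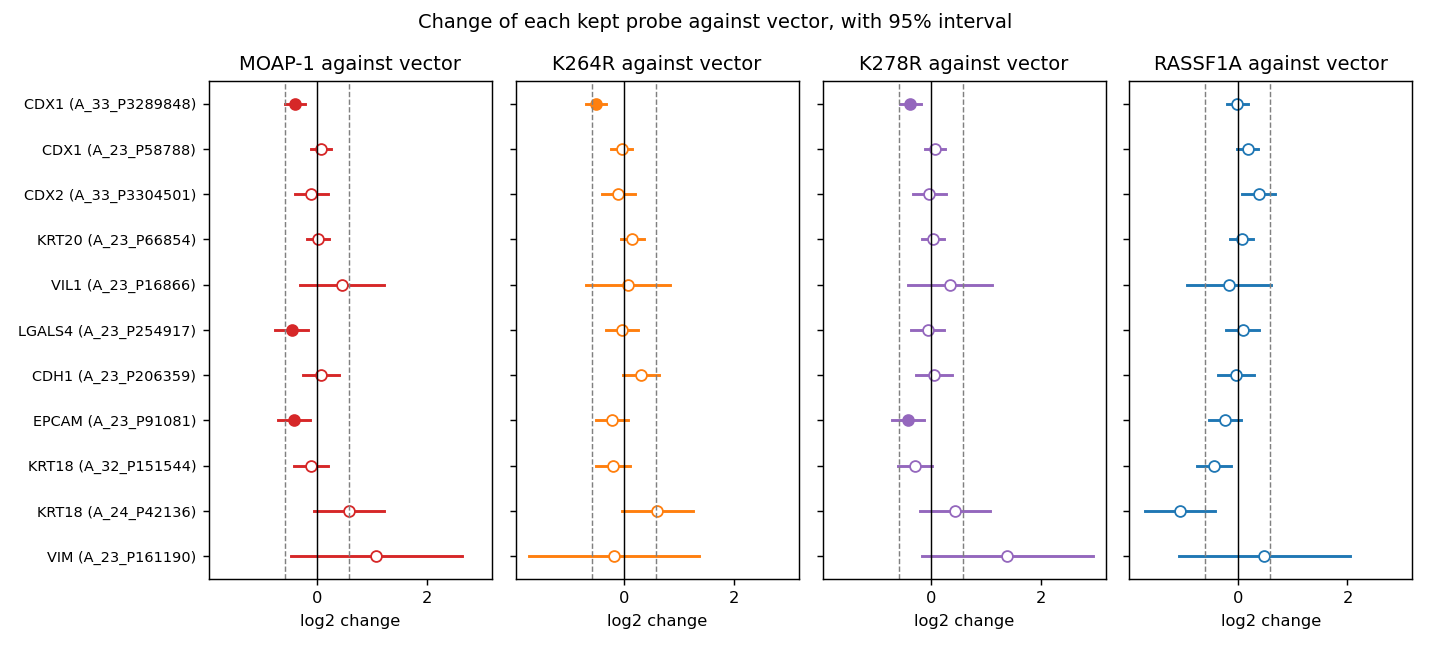
Log2 change of each kept member probe against vector (points) with its 95% interval (lines), 1 panel a construct. Filled points have an adjusted p under 0.05, and the dashed lines mark 1.5-fold in either direction. The 6 filled points all lie to the left of 0 and inside the dashed lines.

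CDX1 had the smallest adjusted p of the members against vector, at 1 of its 2 probes. The brighter probe (A_33_P3289848) read 2.48, 2.38, and 2.23 in vector tumors 1 to 3 and 2.39, 2.30, and 2.40 in RASSF1A tumors. It read 1.93, 2.03, and 1.93 in MOAP-1 tumors, 1.89, 1.90, and 1.80 in K264R tumors, and 2.03, 1.95, and 2.0 in K278R tumors. All 9 tumors with a MOAP-1 construct thus lay below all 6 others. Against vector the change was -0.40 for MOAP-1 (standard error 0.09, adjusted p = 0.00398), -0.50 for K264R (0.09, adjusted p = 0.000763), and -0.37 for K278R (0.09, adjusted p = 0.011), or 1.32-, 1.42-, and 1.29-fold lower, short of the 1.5-fold required. The RASSF1A change was -0.00 (95% interval -0.19 to 0.18). Directly compared, RASSF1A tumors were higher than MOAP-1 tumors by 0.40 (adjusted p = 0.00282), than K264R tumors by 0.50 (adjusted p = 0.000588), and than K278R tumors by 0.37 (adjusted p = 0.00627). At any fold 4, 3, and 3 of 11 member probes passed in these 3 comparisons, beside 37.3%, 40.3%, and 29.2% of all kept probes. In order of level the constructs ran K264R, MOAP-1, K278R, RASSF1A, and vector. The neighbors K264R and MOAP-1, MOAP-1 and K278R, and RASSF1A and vector did not differ past the threshold (adjusted p = 0.687, 0.946, and 0.992). The fall in MOAP-1 tumors was -0.25 under quantile normalization (adjusted p = 0.0501) and -0.15 under the normexp background model (adjusted p = 0.428), and kept an adjusted p under 0.05 in 27 of 29 alternatives (range 0.00182 to 0.428). The K264R fall passed in 28 of 29, all but normexp (adjusted p = 0.261). The K278R fall passed in 25 of 29 and missed 0.05 under quantile normalization (0.0737), under normexp (0.486), with the 2 compared constructs fitted alone (0.0898), and in the adjusted methods' t-test (0.142). The differences of RASSF1A from MOAP-1, K264R, and K278R passed in 26, 29, and 24 of 29 alternatives. Those from MOAP-1 and K278R missed 0.05 under quantile normalization (adjusted p = 0.0855 and 0.11) and under normexp (0.176 and 0.254). The RASSF1A difference from K278R tumors had an adjusted p of 0.055 with these 2 constructs fitted alone and of 0.0875 with scan day as a block. With the 2 later-scanned RASSF1A tumors left out, the differences of RASSF1A from MOAP-1 and K278R had adjusted p of 0.0516 and 0.107.

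The other CDX1 probe (A_23_P58788) did not share this pattern. It ran from -1.55 to -1.21 over the 15 tumors, with vector tumors at -1.55, -1.39, and -1.38 and MOAP-1 tumors at -1.42, -1.41, and -1.27. Its change was 0.07 in MOAP-1 (95% interval -0.12 to 0.26), -0.04 in K264R (-0.23 to 0.15), and 0.08 in K278R tumors (-0.11 to 0.27). The intervals of the 2 probes do not overlap in MOAP-1, K264R, or K278R tumors, so they disagree on CDX1 there. The deposited files give no position for either probe on the gene.

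CDX2 (A_33_P3304501), the partner factor, was highest with RASSF1A and passed the test against vector in no construct. It read -1.0, -1.09, and -0.99 in vector tumors and -0.83, -0.28, and -0.81 in RASSF1A tumors. MOAP-1 tumors gave -1.09, -1.31, and -0.99, K264R tumors -1.21, -1.04, and -1.15, and K278R tumors -0.96, -1.05, and -1.15. All 3 RASSF1A tumors lay above the other 12, with RASSF1A tumor 2 well above the rest. Against vector the RASSF1A change was 0.39 (standard error 0.14, adjusted p = 0.351). RASSF1A tumors exceeded MOAP-1 tumors by 0.49 (adjusted p = 0.014), K264R tumors by 0.49 (adjusted p = 0.0129), and K278R tumors by 0.42 (adjusted p = 0.0387), all under 1.5-fold. These differences passed in 21, 22, and 17 of 29 alternatives, with adjusted p from 0.00539 to 0.363, 0.00265 to 0.705, and 0.0184 to 0.687. Without RASSF1A tumor 2 they were 0.31, 0.31, and 0.23 (adjusted p = 0.0569, 0.0527, and 0.159), and without both later-scanned tumors 0.32, 0.32, and 0.24 (adjusted p = 0.191, 0.173, and 0.387). RASSF1A tumor 3, the one on the slide of the vector tumors, was 0.21 above their mean, and tumors 1 and 2 on the other slide were 0.47 above it. The genes whose signal followed CDX2 most closely over the 15 arrays included ZBTB46 and WDR73 (Pearson r = 0.94 and 0.93), picked from the highest of all kept genes and given as a description.

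Among the differentiation markers, LGALS4 and KRT20 contrasted. LGALS4 (A_23_P254917), galectin 4 of the intestinal epithelium, read -2.13, -2.80, and -2.50 in MOAP-1 tumors and -2.10, -2.01, and -1.93 in vector tumors. It stayed between -2.15 and -1.90 in the RASSF1A, K264R, and K278R tumors. MOAP-1 tumors 2 and 3 were thus the low ones, and MOAP-1 tumor 1 lay among the other constructs. The change against vector was -0.46 (standard error 0.14, adjusted p = 0.0222, 1.38-fold lower) and that of RASSF1A against MOAP-1 was 0.56 (adjusted p = 0.00647, 1.47-fold). The latter had an adjusted p of 0.0969 with scan day as a block and of 0.118 with both later-scanned RASSF1A tumors left out. Against vector it was -0.03 in K264R (95% interval -0.33 to 0.27) and -0.06 in K278R tumors (-0.35 to 0.24). The direct differences of the mutants from MOAP-1 were 0.43 and 0.41 (adjusted p = 0.372 and 0.467), so wild type and mutants were not shown to differ. Without MOAP-1 tumor 1 the fall was -0.64 (adjusted p = 0.00295, past 1.5-fold), and without MOAP-1 tumor 2 it was -0.30 (adjusted p = 0.0968). Leaving out vector tumor 2, vector tumor 3, or MOAP-1 tumor 3 also raised the adjusted p past 0.05 (0.0613, 0.0642, and 0.0591). It passed in 21 of 29 alternatives, the adjusted p ranging from 0.00295 to 0.205.

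KRT20 (A_23_P66854), the keratin of mature colonocytes, had the narrowest range of the 3 differentiation markers. It spanned -3.28 to -2.98 over the 15 tumors, a 1.23-fold range, and its changes against vector were 0.02, 0.15, 0.04, and 0.07 for MOAP-1, K264R, K278R, and RASSF1A. Each of the 4 intervals stayed within 1.5-fold. Whether the promoter letters printed above or the CDX1 level bear on KRT20 was not tested. VIL1 (A_23_P16866), villin of the brush border, was the opposite in spread. It read -3.82, -3.26, and -3.90 in vector tumors, -3.68, -2.97, and -2.98 in MOAP-1 tumors, and -3.79, -2.35, and -3.80 in K278R tumors. K278R tumor 2 stood apart from the other tumors of its construct, and K264R tumor 2 (-3.14) stood above -3.72 and -3.89. Tumor 2 was the highest in every construct, though in MOAP-1 tumors only narrowly. The pooled SD within constructs was 0.49, larger than that of 94.9% of the kept probes, and no change against vector passed (0.45 with standard error 0.35 in MOAP-1, adjusted p = 0.351).

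E-cadherin passed the test against vector in no construct. CDH1 (A_23_P206359) was read from 10 spots on each array, whose SD within an array was 0.03 to 0.07. It gave 1.24, 1.44, and 1.44 in vector tumors, 1.63, 1.39, and 1.31 in MOAP-1 tumors, and 1.89, 1.36, and 1.81 in K264R tumors. RASSF1A tumors gave 1.53, 1.13, and 1.40 and K278R tumors 1.53, 1.28, and 1.50, so every construct overlapped vector. The changes against vector were 0.07 (95% interval -0.26 to 0.40), 0.31 (-0.01 to 0.64), 0.06 (-0.27 to 0.39), and -0.02 (-0.35 to 0.31) for MOAP-1, K264R, K278R, and RASSF1A. A fall of 1.5-fold lies outside all 4 intervals. The K264R change passed under 2 of 29 alternatives, at 0.41 with array weights (adjusted p = 0.0179) and at 0.48 without K264R tumor 2 (adjusted p = 0.0234). USP25, RND3, and PARD6B followed CDH1 most closely over the 15 arrays (Pearson r = 0.94, 0.93, and 0.93, a description).

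EPCAM (A_23_P91081) read 4.65, 5.06, and 5.10 in vector tumors and 4.85, 4.69, and 4.57 in RASSF1A tumors. MOAP-1 tumors gave 4.60, 4.39, and 4.56, K278R tumors 4.59, 4.39, and 4.56, and K264R tumors 4.91, 4.58, and 4.68. All MOAP-1 and K278R tumors lay below all vector tumors, though vector tumor 1 was close to them. The change was -0.42 in both MOAP-1 and K278R tumors (standard error 0.14, adjusted p = 0.0336 and 0.0429, 1.33- and 1.34-fold lower) and -0.21 in K264R tumors (adjusted p = 0.248). It passed in 19 of 29 alternatives for MOAP-1 (adjusted p from 0.00946 to 0.657) and in 12 of 29 for K278R (0.0185 to 0.554). Without vector tumor 3 the changes were -0.33 and -0.34 (adjusted p = 0.113 and 0.127), without vector tumor 2 they were -0.35 and -0.36 (adjusted p = 0.122 and 0.154), and under quantile normalization they were -0.20 and -0.25 (adjusted p = 0.277 and 0.214). The fall also missed 0.05 without MOAP-1 tumor 2 or 3 for MOAP-1 (adjusted p = 0.119 and 0.0611), and for K278R without any of its own tumors 1 to 3 (0.0605, 0.105, and 0.0776), without RASSF1A tumor 2, MOAP-1 tumor 3, or K264R tumor 3 (0.0525, 0.0543, and 0.0594), and with a replicate block (0.0539).

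KRT18 was the only member called in any pair of constructs, and at 1 of its 2 probes. A_24_P42136 read 0.43, 0.48, and 1.90 in RASSF1A tumors and 2.07, 1.65, and 2.23 in vector tumors. It read 2.70, 2.49, and 2.51 in MOAP-1 tumors, 2.48, 2.69, and 2.62 in K264R tumors, and 2.49, 2.47, and 2.31 in K278R tumors. RASSF1A tumors 1 and 2 lay apart from the other 13, and RASSF1A tumor 3 lay among the vector tumors. RASSF1A tumors were lower than MOAP-1 tumors by 3.09-fold (log2 -1.63, standard error 0.30, adjusted p = 0.000963), than K264R tumors by 3.15-fold (-1.66, adjusted p = 0.000773), and than K278R tumors by 2.80-fold (-1.49, adjusted p = 0.00259). Of all kept probes, 21.2%, 23.4%, and 16% were called in these 3 comparisons. In the pairs of MOAP-1 constructs 0 of 11 members were called, beside 0.00327% of all kept probes for K264R against MOAP-1, 0% for K278R against MOAP-1, and 0.575% for K278R against K264R, and at an unadjusted p under 0.05 there was 1 member probe in each of the 3, against 10.9%, 9.22%, and 27.9% of all kept probes. The KRT18 differences are the 3 calls over 11 member probes and 6 pairs of constructs without vector. RASSF1A tumors shared no slide with any MOAP-1 construct, so slide and construct cannot be told apart in these 3 comparisons. The low tumors are those of the later scan day. RASSF1A tumor 3 alone was 0.66 below MOAP-1, 0.69 below K264R, and 0.52 below K278R tumors (adjusted p = 0.0544, 0.0403, and 0.168), so 1 of the 3 calls was left without tumors 1 and 2, a setting added after the data had been seen in which that single tumor is assumed to vary like the other groups. After adjustment the methods' t-test called none of them (adjusted p = 0.0846, 0.0729, and 0.146). Against vector, tumors 1 and 2 averaged -1.53 and tumor 3 differed by -0.08. The fit over all 3 gave -1.05 (standard error 0.30, adjusted p = 0.341).

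All 9 tumors with a MOAP-1 construct exceeded all 3 vector tumors at this probe, by 0.58, 0.61, and 0.44 for MOAP-1, K264R, and K278R, with adjusted p = 0.151, 0.127, and 0.303. With RASSF1A tumors 1 and 2 out of the fit, which lowers the shared estimate of the spread, the adjusted p became 0.0101, 0.00672, and 0.046 for the same changes. The other KRT18 probe (A_32_P151544) gave a different picture. It read 5.58, 5.62, and 5.50 in vector, 5.60, 5.44, and 5.33 in MOAP-1, and 5.15, 4.86, and 5.42 in RASSF1A tumors, and changed by -0.11, -0.20, -0.28, and -0.42 against vector in MOAP-1, K264R, K278R, and RASSF1A tumors (adjusted p = 0.587, 0.301, 0.173, and 0.348). RASSF1A tumors 1 and 2 were again its low RASSF1A tumors. KRT18 has many near-identical pseudogene copies in the human genome, and which transcripts each probe reads was not tested, so the level of KRT18 is uncertain where the probes disagree. KRT8, the filament partner of KRT18, changed by -0.21, -0.35, -0.18, and 0.02 (adjusted p = 0.213, 0.0419, 0.322, and 0.96).

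**Figure D3:**
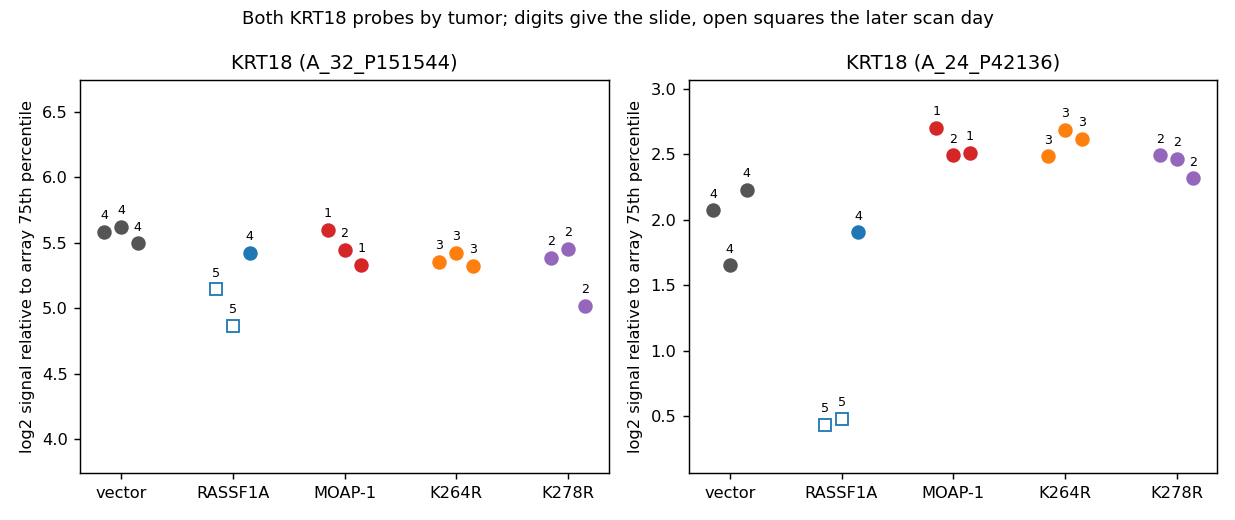
Log2 signal relative to the array's 75th percentile of the 2 KRT18 probes, 1 point a tumor. The digit above a point is its slide and open squares are the 2 arrays of the later scan day. At A_24_P42136 these 2 RASSF1A tumors sit at 0.43 and 0.48 and RASSF1A tumor 3, on slide 4 with the vector tumors, sits at 1.90.

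VIM (A_23_P161190) had the widest spread within constructs of all members. It read 0.84, 1.68, and -0.59 in vector tumors, 1.17, 1.50, and 0.72 in RASSF1A tumors, and -0.09, 2.95, and 2.31 in MOAP-1 tumors. K264R tumors gave 0.15, 1.34, and -0.10 and K278R tumors 1.32, 2.66, and 2.12. In every construct tumor 2 was the highest. The lowest tumor (vector 3) and the highest (MOAP-1 2) were 11.6-fold apart, and MOAP-1 tumor 1 lay near the bottom of the 15. The pooled SD within constructs was 1.01, above that of 99.3% of the kept probes, whose median was 0.18. No change passed: 1.08 in MOAP-1 (standard error 0.72, adjusted p = 0.273), 1.39 in K278R (adjusted p = 0.18), -0.18 in K264R (adjusted p = 0.871), and 0.49 in RASSF1A tumors (adjusted p = 0.819). Without MOAP-1 tumor 1 the MOAP-1 change was 1.98 and passed (adjusted p = 0.0317, range over 29 alternatives 0.0317 to 0.682).

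The summed signal of fibroblast markers moved with VIM in part of the tumors. Of 13 such genes, 10 were kept, and the sum of their signals, in units of the array's 75th percentile, ran from 3.49 to 23.0 in vector, 10.8 to 15.2 in RASSF1A, 8.09 to 52.1 in MOAP-1, 6.48 to 23.2 in K264R, and 16.2 to 49.6 in K278R tumors. The lowest sum was that of vector tumor 3, as for VIM. The 3 highest were those of MOAP-1 tumor 2 (52.1), K278R tumor 2 (49.6), and MOAP-1 tumor 3 (38.5), in the same order as for VIM. Bright genes weigh most in such a sum, and COL1A1 read 4.74, 4.89, and 4.30 on the log2 scale in these 3 tumors. How far the dimmer fibroblast genes share the order was not tested. Vector tumors 1 and 2 departed from this, the former with the 11th lowest sum and the 6th lowest VIM signal, and the latter with the 5th lowest sum and the 11th lowest VIM signal. Of the defining fibroblast genes, COL6A3 and LUM were well above background in 0 tumors and POSTN in 1, while COL1A1 was so in all 15 and was called higher in MOAP-1 tumors (log2 2.24, adjusted p = 0.0406), which passed in 17 of 29 alternatives and not without any 1 of vector tumors 1 to 3, MOAP-1 tumors 2 and 3, or RASSF1A tumor 2 (adjusted p up to 0.155 among these). COL1A1 was the only 1 of the 10 kept fibroblast genes called in MOAP-1 tumors, beside 15% of all kept genes. The median log2 change of the 10 genes was 1.61, 0.32, 1.52, and 0.73 in MOAP-1, K264R, K278R, and RASSF1A tumors. Over all kept genes it was 0.01, -0.02, 0.04, and 0.03. The part of mouse or human fibroblast RNA in the VIM signal was not tested. RAB19, ZNF491, and SERPINB3 followed VIM most closely over the 15 arrays (Pearson r = 0.98, 0.98, and 0.97, a description).

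**Figure D4:**
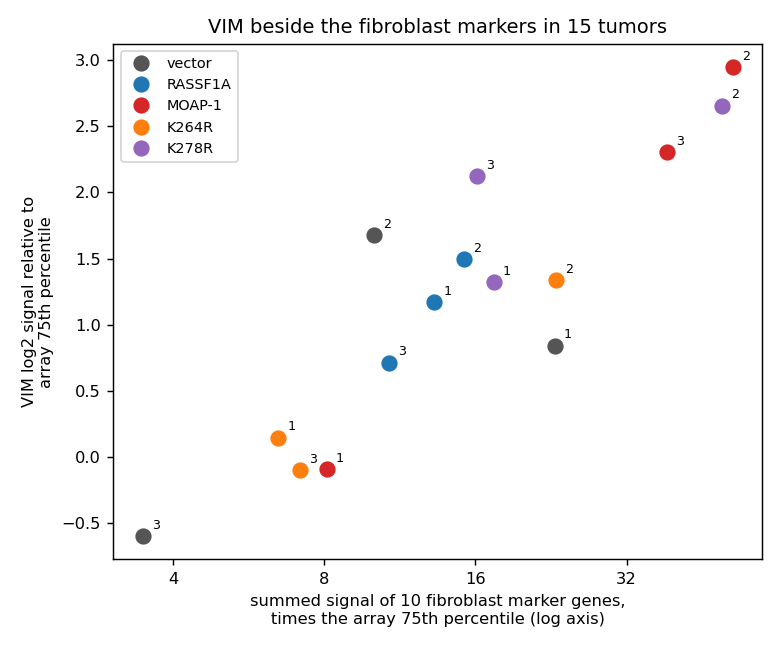
VIM log2 signal relative to the array's 75th percentile against the summed signal of 10 fibroblast marker genes (log axis, in units of the 75th percentile), 1 point a tumor with its tumor number, colored by construct. Vector tumor 3 is lowest on both axes (3.49 and -0.59) and MOAP-1 tumor 2 highest (52.1 and 2.95).

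The other epithelial genes were read from 6 lists at the brightest kept probe of each gene, beside all 18016 kept genes. Of all kept genes, 15%, 18.4%, 9.56%, and 0% were called against vector in MOAP-1, K264R, K278R, and RASSF1A tumors. In RASSF1A tumors limma called 0 genes of the 6 lists, and 13 of their 102 genes (12.7%) had an unadjusted p under 0.05, as did 12.1% of all kept genes. Among 18 intestinal transcription factors, 1 was called higher and 4 lower in MOAP-1, 1 higher and 6 lower in K264R, and 0 higher and 1 lower in K278R tumors, with median changes of -0.16, -0.16, and -0.22 against 0.01, -0.02, and 0.04 over all genes. SPDEF, a factor of goblet cells, fell in all 3, with log2 changes of -1.83, -1.88, and -1.52 (standard error 0.33 each, adjusted p = 0.0014, 0.000872, and 0.00821). Its levels were 0.18 to 1.77 in vector, -0.99 to -0.35 in MOAP-1, -1.12 to -0.51 in K264R, and -0.63 to -0.34 in K278R tumors, with no overlap. GATA4, a factor of the proximal intestine, fell by 0.70 in MOAP-1 and 0.91 in K264R tumors (adjusted p = 0.00232 and 0.000347). SOX9, a factor of crypt progenitors, rose by 0.95 and 1.04 (adjusted p = 0.00343 and 0.00153).

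Of 28 kept differentiation genes, 1 rose and 3 fell in MOAP-1, 0 rose and 3 fell in K264R, and 1 rose and 3 fell in K278R tumors. GUCY2C, the guanylin receptor of the intestinal brush border, fell in all 3, with log2 changes of -2.46, -3.18, and -2.31 (standard error 0.55 each, adjusted p = 0.00503, 0.000799, and 0.0124). It ran from -4.07 to -2.32 in vector tumors and from -7.03 to -4.61 in the 9 tumors with a MOAP-1 construct, with 2 of 3 K264R tumors well above background. Without vector tumor 2 the K278R change was -2.01 (adjusted p = 0.0616, range over 28 alternatives 0.00299 to 0.279). The microvillus genes EPS8 and CDHR5 fell in all 3 constructs as well (EPS8 by 0.72, 1.12, and 0.82; CDHR5 by 0.88, 0.92, and 0.73). USH1C, which anchors the cadherins of microvilli, rose by 0.69 in MOAP-1 and 0.62 in K278R tumors but read -0.19 and -0.21 under normexp. Without vector tumor 2 the K278R changes of CDHR5 and USH1C were -0.56 and 0.50 (adjusted p = 0.0661 and 0.0879), and without K278R tumor 1 that of USH1C was 0.54 (adjusted p = 0.0577). The members KRT20 and VIL1 had no fall past the threshold.

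Keratins other than the members were called at 0 higher and 1 lower of 11 in MOAP-1 and K264R tumors and at 0 in K278R tumors. The gene was KRT7, a keratin of ductal epithelia, which fell by 0.60 and 0.65 (adjusted p = 0.000746 and 0.000321). The MOAP-1 change was under 1.5-fold without vector tumor 1, vector tumor 2, or MOAP-1 tumor 3 (-0.58, -0.55, and -0.58). Of 27 junction genes, 1 rose in MOAP-1 tumors, 2 rose and 2 fell in K264R tumors, and 0 were called in K278R tumors. The desmosomal cadherin DSG2 rose by 1.08 in MOAP-1 and 0.95 in K264R tumors (adjusted p = 0.00954 and 0.0153), the latter 0.65 without vector tumor 2 (adjusted p = 0.0718) and 0.88 without K264R tumor 1 (adjusted p = 0.055). In K264R tumors the tight-junction gene OCLN rose by 1.07 (adjusted p = 0.00333), and the polarity gene PARD3 and the claudin CLDN3 fell by 0.77 and 0.63 (adjusted p = 0.000227 and 0.0207). The CLDN3 call was lost without vector tumor 2 or K264R tumor 1 (adjusted p = 0.092 and 0.0986). Against vector, none of 10 regulators of the epithelial-mesenchymal transition, ZEB1, SNAI1, TWIST1, and GRHL2 among them, was called in any construct. Nor was any of 8 mesenchymal markers other than VIM. At an unadjusted limma p under 0.05 the regulators numbered 3, 1, 4, and 2 and the mesenchymal markers 3, 2, 3, and 0 in MOAP-1, K264R, K278R, and RASSF1A tumors, against 41.9%, 44.6%, 34.7%, and 12.1% of all kept genes.

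**Figure D5:**
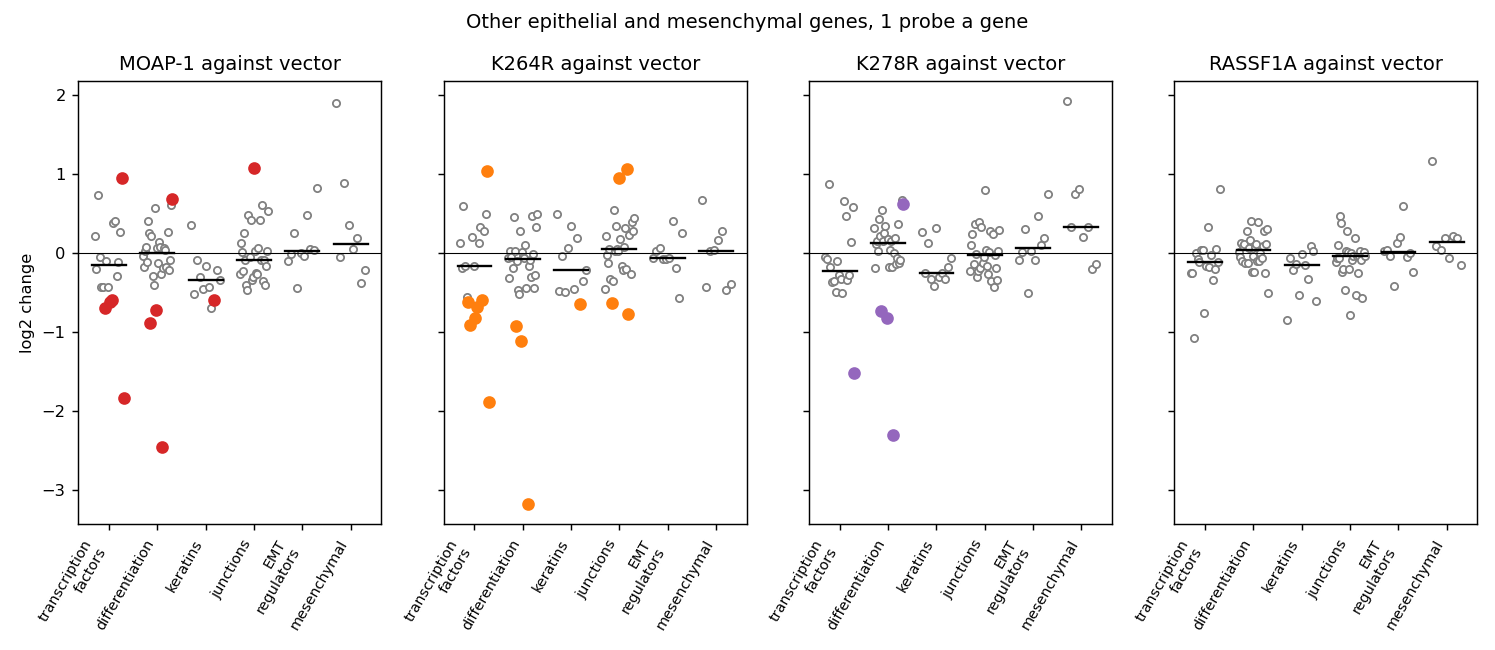
Log2 change against vector of the genes in 6 lists, 1 point a gene at its brightest kept probe and 1 panel a construct. Filled points were called (adjusted p under 0.05 and at least 1.5-fold) and the bars are list medians. SPDEF and GUCY2C are the filled points furthest down in the MOAP-1, K264R, and K278R panels, and the RASSF1A panel has none.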

How the data were processed

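Each array was deposited by the authors as Agilent Feature Extraction output, in which the processed signal is a background-corrected intensity without normalization between arrays (software version 9.1 per the labels). A second deposited table holds the authors' log2 values from GeneSpring GX, in which arrays are aligned at the 75th percentile. In it 8 columns follow the array of their own label and 7 another array of the same construct, so it served only as an alternative. Control spots and outlier spots were left out, the log2 of the processed signal was taken relative to the array's own 75th percentile, and spots of a probe were averaged. Of 34127 probes 30585 were kept. Gene names came from the RefSeq table of GRCh38.p14 through each probe's accession (25422 probes, 74.5%).

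One model of the 15 arrays, with construct alone as a term (10 residual degrees of freedom), was fitted by lmFit and eBayes of limma 3.58.1 (R 4.3.3). Adjusted p-values are Benjamini-Hochberg values across every kept probe. No source says whether tumors of a group came from separate transfections, so p-values measure the spread between these tumors. The fit was also run on simulated data for MOAP-1 against vector, drawn with the means and spreads of these arrays, and the outcome is not reported here. The 75th percentile ran from 496.3 to 1402 intensity units, no spot was saturated, and the number of arrays limits the precision. Named are all member probes, from each list at most 3 called rises and 3 called falls for each construct, and the 3 genes most correlated with CDX2, CDH1, and VIM, except that some of these genes are not reported here. KRT8, KRT19, and CD3E come from the marker lists. The members and lists were chosen with earlier results of these data known. Alternatives were another normalization or background model, other filters, the authors' table, array weights, slide, scan day, or replicate number as a block, fits of the compared arrays only, the methods' t-test, no minimum fold, and each tumor left out.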

Additional observations from a re-analysis of the deposited data

How the results depend on the processing

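The median change of all kept probes moved by more than 0.1 only under the normexp background model (offset 50), to -0.53, -0.31, -0.46, and -0.52 for MOAP-1, K264R, K278R, and RASSF1A against vector, and, with 18 spots of extreme local background left out of that model, to -0.15, -0.28, and -0.09 for MOAP-1, K264R, and K278R. Under normexp TIE1 reversed to -1.02 in MOAP-1 and -1.03 in K278R, USH1C to -0.19 and -0.21, and PDGFRB to -1.25 in K278R tumors, and PDGFRB to -0.015 without those spots. Member calls in K264R tumors rose from 0 to 1, that of KRT18 A_24_P42136, under array weights, scan day as a block, normexp without those spots, the fit of the 2 constructs compared, the unadjusted t-test, and the fit without the 2 RASSF1A tumors scanned later. These settings called 19.3% to 29.4% of all kept probes in K264R tumors. Quantile normalization called 1 in MOAP-1 tumors (LGALS4), beside 15.5% of all kept probes. Without the minimum fold the counts were 3, 1, and 2 for MOAP-1, K264R, and K278R. With a tumor left out they ran from 0 to 2 in MOAP-1, 0 to 1 in K264R, 0 to 0 in K278R, and 0 to 1 in RASSF1A tumors. Of all kept probes, 12.3% to 18.6%, 16% to 22.1%, 5.52% to 12.9%, and 0% to 4.6% were then called. The RASSF1A call was KRT18 A_24_P42136 at -1.53 without RASSF1A tumor 3, a setting that called 4.6% of all kept probes. The 2 RASSF1A tumors then left were both on the slide scanned on the later day. Between constructs other than vector, 3 combinations became 5 under array weights, 10 without the minimum fold, 2 with scan day as a block, 1 without the later-scanned tumors, 0 by the t-test after adjustment, and 3 to 5 with a tumor left out. Changes with an adjusted p of 0.05 or more were counted once for each setting. The sign changed in 40 of 581 such cases under settings other than leaving out a tumor, and in 21 of 570 with a tumor left out. Tumor numbers did not pair the tumors throughout (15 of 30 correlations of same-numbered tumors over 0.1, and 4 of 15 tumors closest to their own number). Those between tumors numbered 2 were all positive, from 0.06 to 0.25, and VIM and VIL1 were highest in tumor 2 of every construct. What tumors of that number share was not tested. With a replicate block the counts stayed 0, 0, 0, 0, and 3. Slide as a fixed block could be fitted for RASSF1A against vector and K278R against MOAP-1 only, with 0 member probes called in each. For RASSF1A against vector, 0.085% of all kept probes were called in that setting. Under the alternatives the share of all kept probes was computed only for comparisons with vector. The 3 arrays a construct, and the slides that each hold mainly 1 construct, limit what a call or a missing call can show.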

Other observations

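Markers of other host cells were read from lists of 8 endothelial, 9 leukocyte, and 5 erythroid genes, of which 7, 8, and 4 were kept. TIE1, an endothelial receptor, was called higher in MOAP-1 and K278R tumors (log2 2.37 and 2.31, adjusted p = 0.019 and 0.0304), with 1 of 3 vector tumors well above background. It was the only 1 of the 7 endothelial genes called against vector, beside 15% and 9.56% of all kept genes in these constructs. The median change of the 7 genes was 0.29 and 0.38. PDGFRB, a receptor of pericytes and fibroblasts, was called higher in K278R tumors (1.34, adjusted p = 0.0425), as 1 of 10 fibroblast genes. Under normexp both were lower than in vector. TIE1 passed in 22 and 19 of 28 alternatives for MOAP-1 and K278R, and PDGFRB in 12 of 28, and either K278R call was lost without any 1 of the 3 vector tumors. Among leukocyte genes PTPRC was higher in MOAP-1 and K278R tumors (0.72 and 0.69, adjusted p = 0.00857 and 0.0176). TYROBP was lower in MOAP-1, K264R, and K278R tumors (-1.70, -1.65, and -1.34, adjusted p = 0.000338, 0.000263, and 0.00355). These were the only calls among the 8 genes against vector, beside 15%, 18.4%, and 9.56% of all kept genes in the 3 constructs. Against vector, limma called 0 of 4 erythroid genes, beside 15%, 18.4%, 9.56%, and 0% of all kept genes in MOAP-1, K264R, K278R, and RASSF1A tumors. At an unadjusted limma p under 0.05 there were 1, 2, 2, and 1 of 4, against 41.9%, 44.6%, 34.7%, and 12.1% of all kept genes. In RASSF1A tumors 1 erythroid gene was called higher than in MOAP-1, K264R, and K278R tumors each, beside 19.9%, 22.5%, and 14.6% of all kept genes called. The summed signal of the 4 genes ran from 9.72 to 20.6 times the 75th percentile over the 15 tumors.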
